A study of Mus musculus with 9 samples.

Results

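The 36 genes described here encode glucose and lactate transporters, enzymes of glycolysis (without Gapdh), the pyruvate dehydrogenase step, the oxygen-sensing machinery and a set of genes that are commonly induced by low oxygen. They were chosen by gene symbol, and all 36 were found among the 20680 genes of the array table, with 83 probe sets between them. Each gene was represented by the probe set with the highest mean log2 intensity over the 9 arrays. Expression was measured in sorted bone marrow cells of mice with acute myeloid leukaemia driven by MLL-AF9, a leukaemia fusion protein that joins part of MLL to AF9. There were 5 Ezh2-null leukaemias and 4 wild-type (WT) leukaemias, with 1 array each, described in the labels as biological replicates.

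In both genotypes the recipients were sublethally irradiated C57B/6 mice, the fusion gene was carried by a retrovirus that also encodes GFP, and pIpC was given to the primary recipients to switch on Cre. Cells positive for GFP and for YFP, the mark of Cre activity, were passed to secondary recipients, and such double-positive cells were sorted again from their marrow for RNA. WT cells were therefore also exposed to pIpC and Cre. The labels name neither the promoter of Cre nor the Ezh2 allele, and the primary leukaemia behind each array is not stated in them, so the p-values measure only the spread between these arrays. With so few arrays, precision is limited throughout.

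Glycolysis converts glucose to pyruvate in the cytosol. Lactate dehydrogenase then turns pyruvate into lactate, or pyruvate dehydrogenase sends it into the citric acid cycle. When oxygen is scarce, the prolyl hydroxylases encoded by the Egln genes stop marking the transcription factor HIF-1alpha for destruction, and HIF-1 then induces many glycolytic genes, the pyruvate dehydrogenase kinase Pdk1, the growth factor Vegfa and others. Leukaemic and normal haematopoietic cells in the marrow live at low oxygen and rely heavily on glycolysis. Ezh2 is the catalytic subunit of Polycomb repressive complex 2, which represses genes by methylating histone H3.

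Across this set, 1 gene passed the test between genotypes, and the level of most glycolytic enzymes differed little. Ldhb, the subunit of lactate dehydrogenase typical of heart, rose 2.91-fold in Ezh2-null leukaemia. It was the only call among 36 genes in limma at a Benjamini-Hochberg adjusted p under 0.05, a rate of 2.78% in the set, against 0.498% of all 20680 genes (0.290% higher and 0.208% lower in Ezh2-null leukaemia). Ndrg1, a gene induced by hypoxia and stress, came next at 2.48-fold higher but had an adjusted p of 0.0569. At an adjusted p under 0.1 the set had 2 calls, Ldhb and Ndrg1, against 2.36% of all genes. At an unadjusted p under 0.05 there were 12 of 36 genes, or 33.3%, with 5 higher and 7 lower, against 17.2% of all genes (8.20% higher and 8.97% lower). For 7 genes, or 19.4%, the ranges of the genotypes were fully apart, with 4 higher and 3 lower, against 5.90% of all genes (3.03% higher and 2.87% lower). The shares of all genes were not matched for level, and the set was bright, at a median percentile of 83.2 among all genes. These counts therefore do not show a trait particular to the set. The median log2 change of the 36 genes was -0.04, that of all genes was 0.02, and 18 of the 36 changes were positive.

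**Figure D1:**
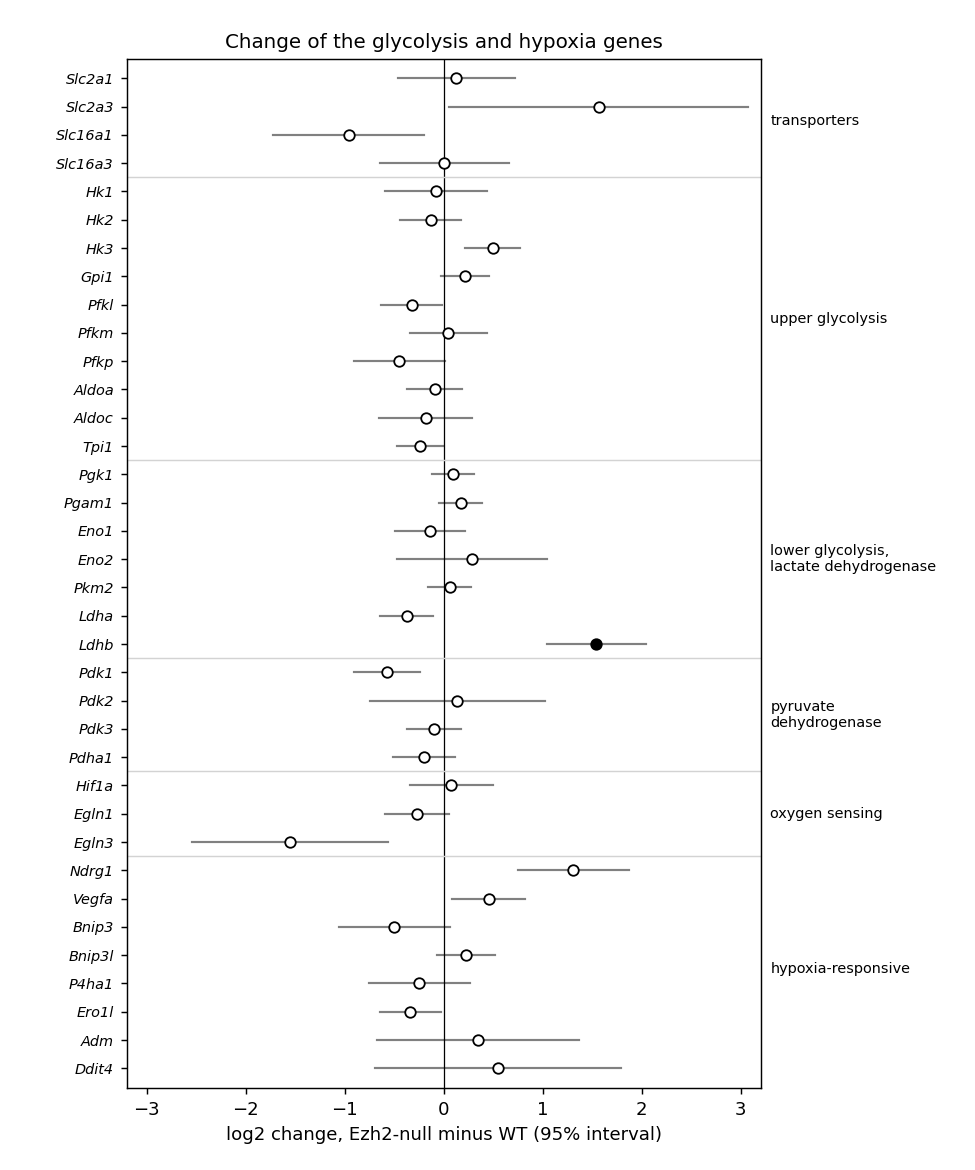
Log2 change of each of the 36 genes (horizontal axis, Ezh2-null minus WT) with its 95% interval from limma, grouped by role. The filled point marks Ldhb, the gene that passed the test, at 1.54, and open points mark genes that did not pass.

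Ezh2 itself read 9.32, 9.33, 9.36, 8.95 and 9.07 on the log2 scale in Ezh2-null leukaemias, against 9.79, 10.61, 10.72 and 10.89 in WT leukaemias, and was lower on every Ezh2-null array (limma adjusted p = 0.0373). Of the marker lists, 11 myeloid leukaemia genes lay at a median percentile of 95.8 among all genes and 12 neutrophil maturation genes at 97.6, while T and NK cell, B cell, erythroid, macrophage and stromal lists lay between 29.1 and 38.3. WT replicates 3 and 4 stood apart from all other arrays on the first principal component, at 58.9 and 51.8 against -29.5 to -0.67. Summed intensity of the 12 neutrophil genes ran from 93338 to 155920 in Ezh2-null arrays and from 33165 to 119830 in WT arrays, and all 12 had positive changes. Their mean log2 deviation was 0.96, 0.86, 0.38, 0.92 and -0.23 on Ezh2-null replicates 1 to 5, and 0.12, 0.19, -1.93 and -1.26 on WT replicates 1 to 4. Of these 12 genes 7 (58.3%) were at an unadjusted p under 0.05, against 17.2% of all genes. Olfm4 alone passed (8.33%, against 0.498% of all genes), with a change of 3.63 and no overlap (limma adjusted p = 0.00299). The 9 T and NK cell genes also had positive changes throughout, without a call, and their summed intensity was 1672 to 1939 on Ezh2-null arrays and 962 to 1445 on WT arrays, without overlap. Nkg7, a gene of cytotoxic granules, had the largest change of them, 1.25 (adjusted p = 0.0985), and without it, a choice made after its value was seen, the sums of the other 8 were 910 to 1138 in Ezh2-null and 745 to 1051 in WT leukaemias, which overlapped. The part of these cells in the values of Ldhb, Ndrg1 and the other genes was not tested. In such bulk samples a lower share of a cell type and less RNA per cell cannot be told apart. Without WT replicates 3 and 4, none of the 36 genes passed in limma, against 0.295% of all genes, 6 (16.7%) were at an unadjusted p under 0.05, against 11.9% of all genes, and the smallest adjusted p was 0.0676, for Ldhb.

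The 4 transporters gave no call. The genes are Slc2a1 and Slc2a3, which encode the glucose transporters GLUT1 and GLUT3, and Slc16a1 and Slc16a3, which encode the lactate transporters MCT1 and MCT4. Slc2a3 read 12.19, 12.50, 11.52, 12.12 and 10.19 on Ezh2-null arrays, against 10.91, 11.88, 8.58 and 9.18 on WT arrays (log2 level). WT replicates 3 and 4 were the lowest of all. The groups overlapped, since WT replicate 2 lay above Ezh2-null replicates 3 and 5, and WT replicate 1 lay above Ezh2-null replicate 5. Its change of 1.56 (SE 0.68, adjusted p = 0.275) was the largest in the set and the least precise, with a 95% interval of 0.05 to 3.08. All 4 of its probe sets were positive, from 0.96 to 1.56. Without WT replicates 3 and 4 the change was 0.31. The neutrophil genes were lowest on the same WT arrays, and their part in the values of Slc2a3 was not tested.

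Slc16a1 split the WT arrays the other way. Its levels were 8.12, 8.50, 7.56, 8.45 and 8.13 in Ezh2-null leukaemias and 8.37, 8.45, 9.80 and 9.81 in WT leukaemias, so that WT replicates 3 and 4 were the highest and the other WT arrays lay inside the Ezh2-null range. The change was -0.96 (SE 0.34, adjusted p = 0.199), its dimmer probe set stood at -0.49, and without WT replicates 3 and 4 the change was -0.26. Slc16a1 passed in 1 of 19 alternative analyses (limma adjusted p = 0.0465). Slc2a1 differed by 0.13 (95% interval -0.46 to 0.72) and Slc16a3 by 0.01 (95% interval -0.65 to 0.66).

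The enzymes from hexokinase to triosephosphate isomerase had 7 negative and 3 positive changes among 10 genes, with a median of -0.11, and none passed. The hexokinase genes start the pathway by phosphorylating glucose, and only Hk3, the form typical of myeloid cells, separated the genotypes. It read 12.09, 11.98, 11.94, 11.73 and 11.66 in Ezh2-null leukaemias and 11.39, 11.51, 11.44 and 11.20 in WT leukaemias. Every Ezh2-null array lay above every WT array, by a narrow margin for Ezh2-null replicate 5. The change was 0.50 (SE 0.12, 1.41-fold, adjusted p = 0.10), its other probe set stood at 0.36, and without WT replicates 3 and 4 the change was 0.43. Hk3 passed in 1 of 19 alternative analyses (limma adjusted p = 0.0475). Hk1, the housekeeping form, and Hk2, the inducible form, had changes of -0.08 (95% interval -0.60 to 0.44) and -0.13 (95% interval -0.44 to 0.18). A dimmer Hk1 probe set stood at -0.37 (adjusted p = 0.214 over all probe sets).

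Phosphofructokinase, which commits glucose carbon to glycolysis, is encoded by Pfkl (liver type), Pfkm (muscle type) and Pfkp (platelet type). Pfkl read 9.40, 9.69, 9.70, 9.84 and 9.89 on Ezh2-null arrays, against 9.79, 10.30, 9.99 and 10.02 on WT arrays, with overlap through WT replicate 1. Its brightest probe set had a change of -0.32 (SE 0.14, adjusted p = 0.273). A second Pfkl probe set read 8.32, 8.52, 8.65, 8.72 and 8.73 in Ezh2-null leukaemias and 9.17, 9.53, 9.20 and 9.43 in WT leukaemias, with no overlap. When every probe set was tested on its own, that one fell by 0.74 on the log2 scale (adjusted p = 0.0484), as part of the 0.428% of 37818 probe sets that passed, while the third and dimmest stood at 0.16. The probe sets of Pfkl thus disagreed. Pfkp had changes of -0.54 to -0.32 on its 3 probe sets (adjusted p = 0.300 for the brightest), and Pfkm stood at 0.05.

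The other genes of upper glycolysis gave no call. Gpi1, which isomerises glucose 6-phosphate, had a change of 0.22 with all 3 probe sets between 0.22 and 0.24. Aldoa, the main aldolase, had a change of -0.09 (95% interval -0.37 to 0.19), and Aldoc, the form typical of brain, had -0.18 (95% interval -0.65 to 0.28). Aldoc lay near the middle of all genes by level, at the 50.5th percentile, and its dimmer probe set stood at -0.79. Tpi1, which interconverts the triose phosphates, had a change of -0.24 (adjusted p = 0.278), with its 3 probe sets between -0.30 and -0.20. The brightest probe sets of Gpi1, Aldoa, Tpi1, Eno1, Ndrg1 and Adm, 6 in all, carry the suffix _x_at, which marks probe sets that may share probes with other sequences, so their values are less certain.

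In lower glycolysis and at lactate dehydrogenase, Ldhb rose and no other gene passed. Lactate dehydrogenase is a tetramer of subunits A and B. The A subunit predominates in muscle and in many tumours, where the enzyme favours lactate formation, and the B subunit predominates in heart, where it favours use of lactate. The promoter windows of both genes are given because Ldhb carried the call and Ldha encodes its partner subunit. They run from 250 bases before to 50 bases after the annotated start (RefSeq, GRCm38.p6, 5' to 3' on the gene's strand). Capitals mark ACGTG and GCGTG on either strand, the core letters of the hypoxia response element to which HIF binds.
Ldhb (chr6:142507908-142508207, minus strand): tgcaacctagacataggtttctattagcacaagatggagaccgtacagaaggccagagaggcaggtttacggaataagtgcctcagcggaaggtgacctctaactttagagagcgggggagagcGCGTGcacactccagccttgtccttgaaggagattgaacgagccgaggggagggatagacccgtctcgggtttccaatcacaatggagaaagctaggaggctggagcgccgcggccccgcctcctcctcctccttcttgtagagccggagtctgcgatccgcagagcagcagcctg
Ldha (chr7:46845554-46845853, plus strand): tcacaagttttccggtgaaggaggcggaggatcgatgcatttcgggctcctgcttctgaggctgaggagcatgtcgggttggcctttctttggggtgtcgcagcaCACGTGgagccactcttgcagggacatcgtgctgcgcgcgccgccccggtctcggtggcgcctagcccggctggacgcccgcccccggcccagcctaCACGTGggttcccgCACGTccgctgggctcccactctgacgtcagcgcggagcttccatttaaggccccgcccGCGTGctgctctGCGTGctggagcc
The Ldhb window held 0 matches to ACGTG and 1 to GCGTG, with 17 CpG dinucleotides. This Ldha window held 5 matches to ACGTG and 2 to GCGTG, with 30 CpG dinucleotides. The letters CACGTG, which are also the E-box bound by Myc and related factors, hold ACGTG on both strands and were counted on each. A second annotated Ldha start had 0 matches to ACGTG and 2 to GCGTG in its window. The array data do not measure binding or methylation at these windows.

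Ldhb read 10.07, 10.23, 9.78, 9.73 and 9.07 on Ezh2-null arrays and 8.07, 7.99, 8.39 and 8.49 on WT arrays (log2 level). Every Ezh2-null array lay above every WT array, with Ezh2-null replicate 5 the nearest to WT. The mean was 9.78 ± 0.45 in Ezh2-null leukaemias (SD, n = 5) and 8.24 ± 0.25 in WT leukaemias (SD, n = 4). The change was 1.54 (SE 0.22, 95% interval 1.04 to 2.04, limma adjusted p = 0.0250). The two-sided exact permutation p over all splits of the arrays was 0.0159, where the smallest possible is 0.00794. That p is not adjusted over genes and uses the same values. In the same permutation test Ldha, Pgam1 and Ero1l reached 0.00794 without a call.

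All 4 probe sets of Ldhb were higher in Ezh2-null leukaemia without overlap, with changes of 1.54, 2.11, 2.05 and 3.84 in order of brightness. Those at 2.11 and 2.05 carry the suffix _x_at and may share probes with other sequences, so the probe sets are not fully independent readings. On the probe set with the largest change the levels were 10.59, 10.04, 10.33, 9.94 and 8.50 in Ezh2-null arrays and 3.89, 4.83, 7.26 and 8.18 in WT arrays. WT replicates 1 and 2 were far below WT replicates 3 and 4 there, at levels of the dimmest genes (Slc2a2, at similar levels, lay at the 2.80th percentile). The size of this change is therefore uncertain. When each probe set was tested on its own, 3 of the 4 passed, and this one had an adjusted p of 0.0799.

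**Figure D2:**
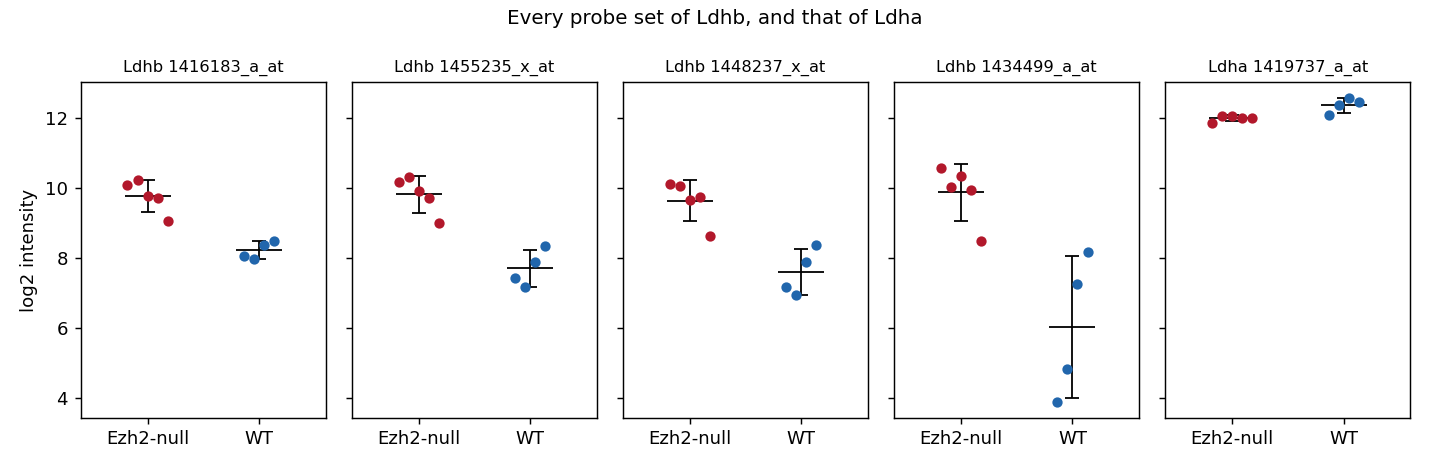
Log2 intensity on each array (points) for the 4 probe sets of Ldhb and the single probe set of Ldha, with mean and SD as bars (5 Ezh2-null arrays in red, 4 WT arrays in blue). Ldhb separates the genotypes on each of its probe sets, by 1.54 to 3.84, and Ldha differs by -0.37.

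The call for Ldhb depended on which arrays entered. It passed in 11 of 19 alternative analyses, and its change was positive in all 19, from 1.11 in the batch-adjusted table to 2.38 as the mean of its probe sets. It was lost, with an adjusted p of 0.0612 to 0.0713, when WT replicate 3 or 4 or Ezh2-null replicate 1, 2, 3 or 4 was left out, when WT replicates 3 and 4 were both left out, and when they were averaged. In those 8 analyses the change was 1.43 to 1.75. It passed when WT replicate 1 or 2 was left out. Without Ezh2-null replicate 5 the adjusted p was 0.00330.

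Ldhb lies on chromosome 6, as do Ezh2 and, among the 36 genes, Slc2a3, Hk2, Tpi1 and Eno2, in the RefSeq gene table. The 10 measured genes nearest to Ldhb, 5 on each side, were examined after its value was seen. None passed in limma, and in all 10 the genotypes overlapped. Their changes ran from -0.79 to 0.68, 7 were positive, and the smallest adjusted p was 0.0865.

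Ldha read 11.87, 12.06, 12.07, 11.99 and 11.99 in Ezh2-null leukaemias and 12.07, 12.36, 12.57 and 12.46 in WT leukaemias. Every Ezh2-null array lay below every WT array, though Ezh2-null replicate 3 and WT replicate 1 nearly touched. The change was -0.37 (SE 0.12, 1.30-fold higher in WT, adjusted p = 0.168), on a single probe set, and it stood at -0.22 without WT replicates 3 and 4. Ldha passed in 1 of 19 alternative analyses (limma adjusted p = 0.0474).

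The enzymes between the triose phosphates and pyruvate were among the brightest genes of the array and differed little. Pgam1, phosphoglycerate mutase, read 13.64, 13.46, 13.51, 13.59 and 13.47 in Ezh2-null leukaemias and 13.25, 13.43, 13.32 and 13.44 in WT leukaemias. The groups did not overlap, but the change was 0.17 (SE 0.10, 1.13-fold, adjusted p = 0.389). Pgk1, phosphoglycerate kinase, had a change of 0.09 (95% interval -0.11 to 0.30), and Pkm2, the pyruvate kinase of proliferating cells and muscle, 0.06 (95% interval -0.16 to 0.28). Eno1, the common enolase, had -0.14 (95% interval -0.49 to 0.22). Eno2, the neuronal enolase, was dim, at the 23.0th percentile of all genes, and its change of 0.29 became -0.30 without WT replicates 3 and 4.

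Over the 17 glycolytic and lactate dehydrogenase genes together, 8 changes were positive and 9 negative, and the median was -0.08. For 15 of the 17 the 95% interval lay inside a 2-fold change in either direction, and for 9 it lay inside 0.5 on the log2 scale. Ldhb and Eno2 were the exceptions to the first bound. The summed intensity of the 17 genes was 55532 to 62952 on Ezh2-null arrays and 55880 to 59564 on WT arrays. Of the 17, 9 lay above the 90th percentile of all genes by mean level.

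At the pyruvate dehydrogenase step no gene passed. Pdk1 encodes a kinase that switches the complex off and is a known HIF-1 target. It read 8.68, 8.79, 8.56, 8.91 and 8.86 on Ezh2-null arrays and 9.62, 8.91, 9.44 and 9.36 on WT arrays, and WT replicate 2 met the highest Ezh2-null array. The change was -0.57 (SE 0.15, adjusted p = 0.114), and it passed with array weights (adjusted p = 0.0386) and without WT replicate 2 (adjusted p = 0.0369), within a range of 0.0369 to 0.380 over 19 alternatives. Of its other 3 probe sets 2 were negative, at -0.91 and -0.54, and the dimmest stood at 0.71. Pdha1, the catalytic subunit gene, read 9.97, 9.80, 10.08, 9.86 and 10.16 in Ezh2-null leukaemias and 10.06, 9.89, 10.48 and 10.27 in WT leukaemias, with broad overlap and a change of -0.20 (adjusted p = 0.506), and its other probe set stood at -0.36. Pdk3 had a change of -0.10. Pdk2 was dim and had 0.14 with a 95% interval of -0.75 to 1.02, since WT replicate 1 read 5.38 against 7.07 to 7.81 on the other WT arrays.

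Among the oxygen-sensing genes, Egln3 differed most and Hif1a differed little, and none passed. Egln3 encodes the prolyl hydroxylase PHD3, which is itself induced by hypoxia. Its levels were 9.01, 8.35, 6.74, 7.62 and 8.58 in Ezh2-null leukaemias and 9.04, 9.22, 10.42 and 9.76 in WT leukaemias. No Ezh2-null array reached the lowest WT array, although Ezh2-null replicate 1 came close to WT replicate 1. The change was -1.55 (SE 0.45, 2.93-fold higher in WT), with an adjusted p of 0.134 and a 95% interval of -2.54 to -0.56. Its second probe set stood at -0.96 and overlapped between genotypes. Without WT replicates 3 and 4, which were the highest, the change was -1.07 (adjusted p = 0.476). It passed with array weights alone (adjusted p = 0.0496) among 19 alternatives. The Egln3 promoter window is shown as that of the hypoxia gene with the largest negative change, with the same capitals, and holds 1 match to ACGTG.
Egln3 (chr12:54203825-54204124, minus strand): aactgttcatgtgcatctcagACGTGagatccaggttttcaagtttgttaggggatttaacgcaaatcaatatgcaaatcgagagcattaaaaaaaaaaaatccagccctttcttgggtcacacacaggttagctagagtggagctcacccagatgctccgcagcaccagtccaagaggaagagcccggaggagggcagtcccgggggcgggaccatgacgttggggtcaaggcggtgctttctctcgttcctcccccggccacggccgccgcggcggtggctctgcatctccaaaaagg

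Egln1, the gene of the main oxygen sensor PHD2, read 10.20, 9.82, 9.74, 9.53 and 9.52 on Ezh2-null arrays and 9.96, 10.05, 10.07 and 10.04 on WT arrays. Ezh2-null replicate 1 was the highest of all and the other 4 Ezh2-null arrays lay below all WT arrays, which gave a change of -0.27 (SE 0.15, adjusted p = 0.377). Hif1a encodes the regulated subunit of HIF-1, which is controlled chiefly through protein stability. It read 10.84, 9.99, 10.07, 9.83 and 10.32 in Ezh2-null leukaemias and 10.16, 10.22, 10.04 and 10.11 in WT leukaemias, so Ezh2-null replicate 1 stood highest again. The change was 0.08 (95% interval -0.34 to 0.50), and the other 3 Hif1a probe sets had the opposite sign, from -0.24 to -0.07.

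**Figure D3:**
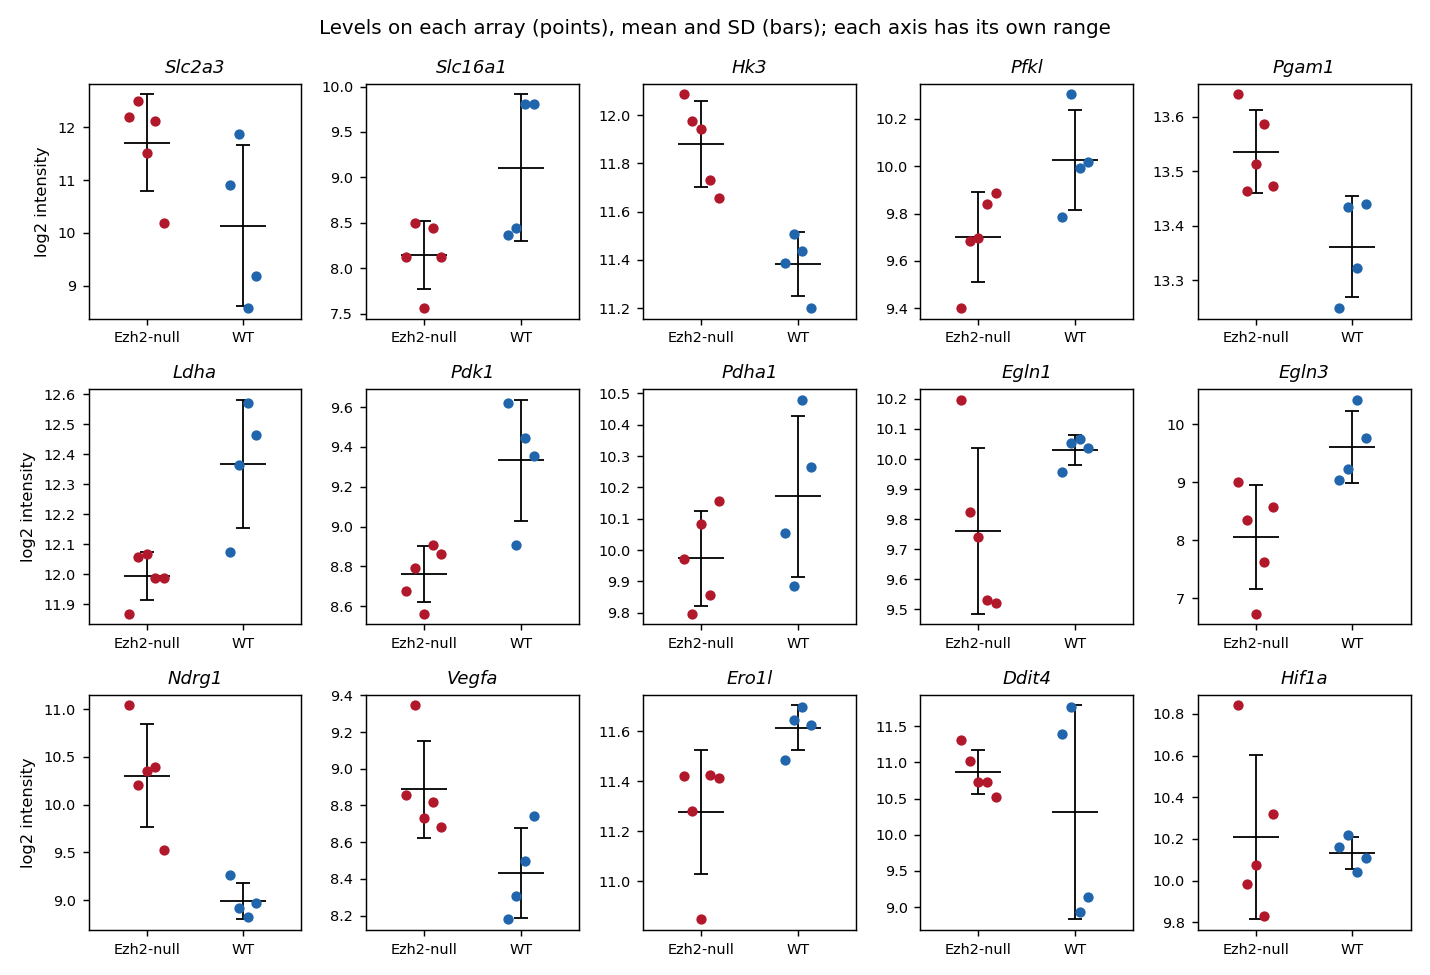
Log2 intensity on each array (points, vertical axes with separate ranges) of 15 of the genes, with mean and SD as bars, for 5 Ezh2-null arrays (red) and 4 WT arrays (blue). Hk3, Ndrg1, Pgam1, Ldha, Egln3 and Ero1l do not overlap between genotypes, whereas Slc2a3, Slc16a1 and Ddit4 split the WT arrays into pairs.

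The 8 hypoxia-responsive genes had 5 positive and 3 negative changes, a median of 0.29, and no call. Ndrg1 read 11.04, 10.21, 10.35, 10.39 and 9.53 on Ezh2-null arrays and 9.26, 8.91, 8.82 and 8.97 on WT arrays. Every Ezh2-null array was above every WT array, with Ezh2-null replicate 5 the lowest of its group, as for Ldhb, Hk3 and the neutrophil genes, whose part in these values was not tested. The change was 1.31 (SE 0.25, 95% interval 0.75 to 1.87, adjusted p = 0.0569). It passed in 5 of 19 alternatives, which were those without dim genes (adjusted p = 0.0455), with quantile normalization (0.0492), with array weights (0.0287), with the replicate number as a block (0.0184) and without Ezh2-null replicate 5 (0.0117), in a range of 0.0117 to 0.227. Its 4 dimmer probe sets were all positive but smaller, from 0.17 to 0.60, and as the mean of all 5 probe sets the change was 0.60 (adjusted p = 0.149). The size of the Ndrg1 difference therefore rests on its brightest probe set.

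Vegfa, the angiogenic growth factor gene, read 8.86, 9.35, 8.73, 8.82 and 8.68 in Ezh2-null leukaemias and 8.18, 8.31, 8.50 and 8.74 in WT leukaemias. WT replicate 4 reached into the Ezh2-null range, and the change was 0.45 (SE 0.17, adjusted p = 0.206), with 0.20 on the other probe set. Ero1l, which encodes an oxidase of protein folding in the endoplasmic reticulum, read 11.42, 11.28, 10.85, 11.43 and 11.41 on Ezh2-null arrays and 11.49, 11.65, 11.70 and 11.63 on WT arrays. Its groups did not overlap, although Ezh2-null replicates 1 and 4 came close to WT replicate 1. The change was -0.34 (SE 0.14, adjusted p = 0.256), and all 3 of its probe sets were negative, from -0.53 to -0.34.

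Bnip3 and Bnip3l, paralogues that direct mitochondria to autophagy, had changes of opposite sign, -0.50 (95% interval -1.06 to 0.07) and 0.23 (95% interval -0.07 to 0.52), neither of which passed. A second Bnip3l probe set, nearly as bright, stood at 0.51 without overlap (adjusted p = 0.144 over all probe sets), and the third at 0.29. P4ha1, a collagen prolyl hydroxylase subunit gene, had -0.25, and Adm, which encodes the vasodilator adrenomedullin, 0.35, with Ezh2-null replicate 4 at 9.86 and all other arrays between 7.24 and 8.34. Ddit4, an mTORC1 inhibitor induced by hypoxia and other stresses, read 11.31, 11.01, 10.73, 10.72 and 10.53 on Ezh2-null arrays and 11.40, 11.77, 8.93 and 9.14 on WT arrays. The WT arrays lay on either side of the whole Ezh2-null range. The change of 0.55 (SE 0.56, adjusted p = 0.647) accordingly became -0.72 (adjusted p = 0.264) without WT replicates 3 and 4.

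The split inside WT was also present among the 36 genes. WT replicates 3 and 4 both lay above WT replicates 1 and 2 on 14 genes and both below on 7. The means of these pairs were at least 1 log2 unit apart for 5 genes, namely Slc2a3, Slc16a1, Eno2, Pdk2 and Ddit4. The matching shares of all genes were not computed, so these counts do not show a trait particular to the set. Of the 36 changes, 5 turned sign without WT replicates 3 and 4, and these were Ddit4, Eno2, Hk1, Pdha1 and P4ha1, none of which passed in either analysis. Ldhb, Ndrg1, Hk3, Pdk1 and Vegfa kept changes of 1.75, 1.22, 0.43, -0.51 and 0.64 without those arrays. The smallest adjusted p among the 36 was then 0.0676.

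**Figure D4:**
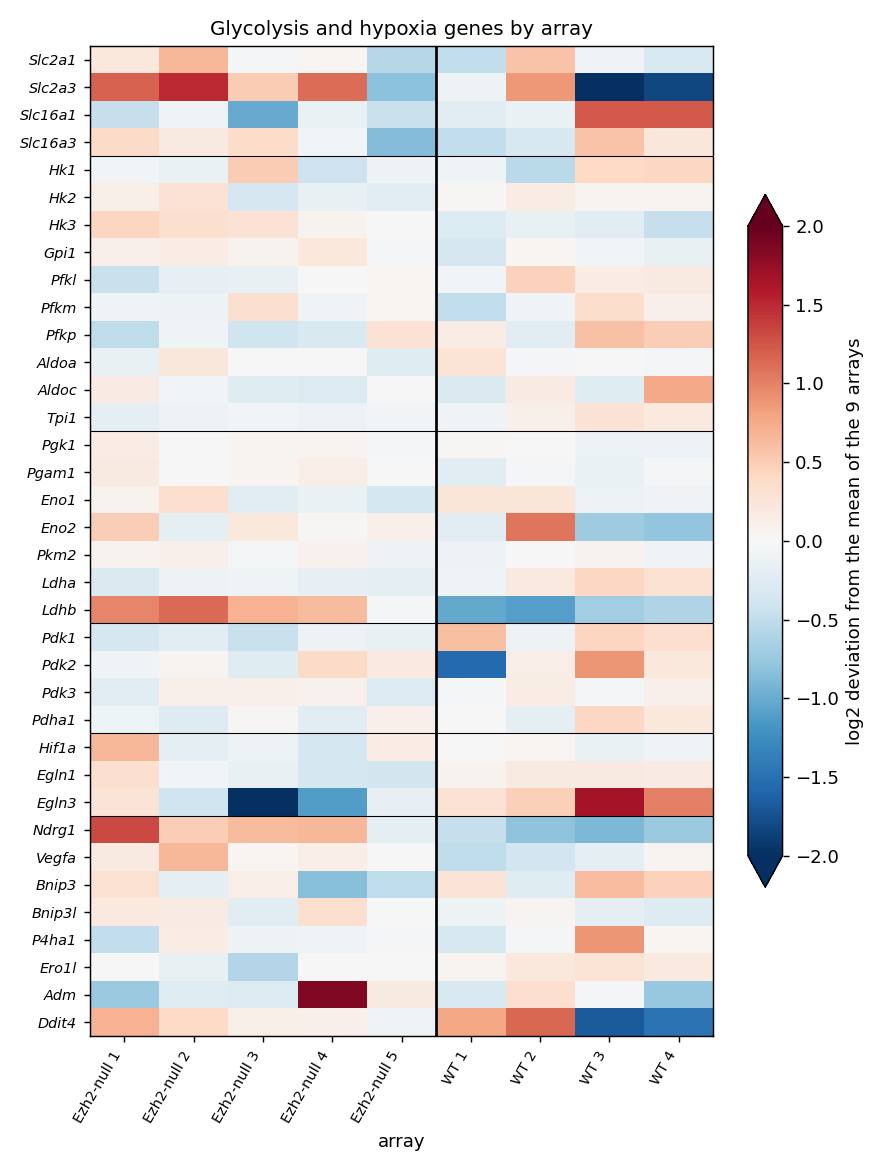
Deviation of each gene (rows, grouped by role) from its mean over the 9 arrays on the log2 scale, with 5 Ezh2-null arrays left of the line and 4 WT arrays right of it; colours saturate at 2 in either direction. Ldhb and Ndrg1 are low on all 4 WT arrays, while Slc2a3 and Ddit4 are low on WT replicates 3 and 4.

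**Figure D5:**
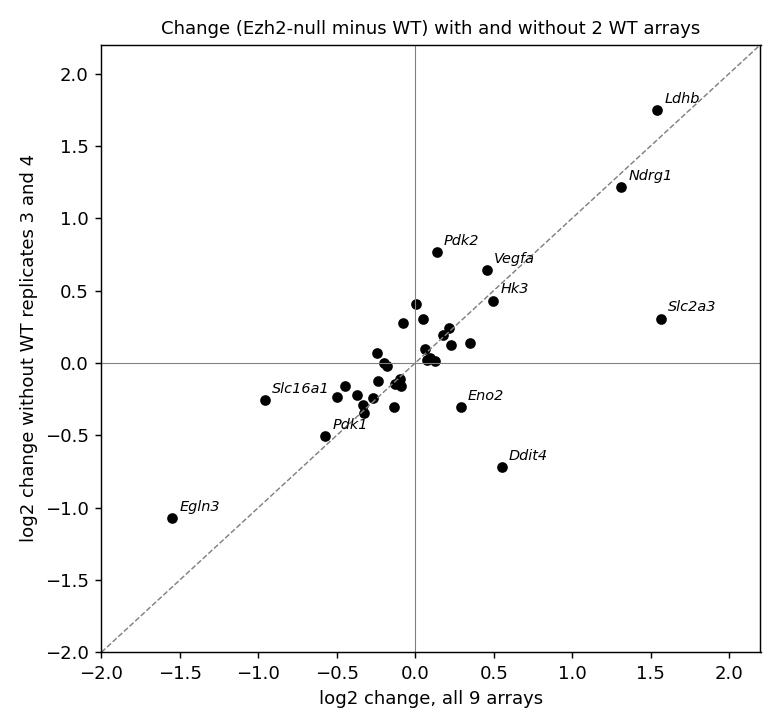
Log2 change (Ezh2-null minus WT) of each of the 36 genes over all 9 arrays (horizontal axis) and without WT replicates 3 and 4 (vertical axis); points on the dashed line are equal in both. Ldhb (1.54 and 1.75) and Ndrg1 (1.31 and 1.22) lie near the line, Slc2a3 (1.56 and 0.31) and Ddit4 (0.55 and -0.72) lie below it.

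The promoter windows of the set were rich in the searched letters and in CpG. RefSeq windows were matched for 33 of the 36 genes, 47 windows in all, with Slc2a3, Ndrg1 and Bnip3l not matched. ACGTG on either strand was in 25 windows, or 53.2%, against 19.6% of all 32851 windows in the table, and ACGTG or GCGTG was in 37, or 78.7%, against 43.8%. The median window of the set held 21 CpG dinucleotides and 62.3% G and C, against 7 and 52.7% over all windows. The shares of all windows were not matched for CpG, and overlapping windows of the same gene, as for Aldoa and Eno1, were counted separately. Genes with ACGTG in a window were found with positive changes (Hk3, 0.50), with changes near 0 (Pgk1, 0.09) and with negative changes (Slc16a1, -0.96). A match is only a match of letters.

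Related pathways gave 1 call among their 4 lists, while 0.498% of all genes passed. Of 30 other genes of glycolysis and pyruvate use none passed in limma, and the median change was -0.02. At an unadjusted p under 0.05 there were 9 (30.0%), with 2 higher and 7 lower, against 17.2% of all genes (8.20% higher and 8.97% lower). The smallest p belonged to 9630033F20Rik, now named Tigar, whose product lowers fructose 2,6-bisphosphate and so slows glycolysis. It read 9.27, 8.76, 8.74, 9.36 and 9.02 in Ezh2-null leukaemias and 9.70, 9.53, 10.23 and 10.20 in WT leukaemias, without overlap, a change of -0.88 (SE 0.19, adjusted p = 0.0763) that stood at -0.58 without WT replicates 3 and 4. Eno3, the muscle enolase, had a change of -0.80 (adjusted p = 0.112).

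The 10 genes of the pentose phosphate pathway, which branches from glucose 6-phosphate and makes NADPH, had 7 positive changes, a median of 0.12 and no call, with 3 (30.0%) at an unadjusted p under 0.05, against 17.2% of all genes. G6pdx, its entry enzyme, read 12.54, 12.57, 12.26, 12.49 and 11.75 on Ezh2-null arrays and 11.69, 11.64, 11.65 and 11.93 on WT arrays, and Ezh2-null replicate 5 alone lay within the WT range. The change was 0.59 (SE 0.17, adjusted p = 0.138). Pgls, the lactonase of the next step, had a change of -0.30 (adjusted p = 0.184) without overlap. Without WT replicates 3 and 4, 9 of the 10 changes were positive with a median of 0.27, 5 of 10 were at an unadjusted p under 0.05, against 11.9% of all genes, and none passed in limma.

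The 18 citric acid cycle genes had 16 negative changes, or 88.9%, against 46.7% of all genes, and a median of -0.29. None passed in limma, and 5 (27.8%) were lower at an unadjusted p under 0.05, against 8.97% of all genes. The succinyl-CoA ligase gene Suclg2 stood at -0.82 (adjusted p = 0.151) and the succinate dehydrogenase gene Sdha, without overlap, at -0.32 (adjusted p = 0.172). Without WT replicates 3 and 4, 11 of the 18 (61.1%) were negative, against 53.5% of all genes, the median was -0.01 and none was at an unadjusted p under 0.05.

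Of 41 other genes of the hypoxia pathway 1 (2.44%) passed, against 0.498% of all genes. The median change was 0.04. There were 23 positive and 18 negative changes (43.9% negative, against 46.7% of all genes). At an unadjusted p under 0.05 there were 5 (12.2%), against 17.2% of all genes. Tfrc, the transferrin receptor gene, which hypoxia, iron shortage and proliferation can all raise, read 10.59, 9.80, 9.89, 10.43 and 10.17 in Ezh2-null leukaemias and 11.80, 11.77, 11.15 and 10.98 in WT leukaemias. It fell by 1.25 on the log2 scale (SE 0.23, 2.37-fold higher in WT, adjusted p = 0.0471), with no overlap. It passed in 6 of 19 alternatives, within adjusted p of 0.0128 to 0.112, and its change was -1.61 (adjusted p = 0.0387) without WT replicates 3 and 4. Tfrc is also among the 9 erythroid markers, and the other 8 gave no call. Summed intensity of all 9 was 1671 to 2411 on Ezh2-null arrays and 2802 to 4742 on WT arrays, without overlap. With Tfrc left out, its value being known, the sum of the other 8 was 779 to 990 on Ezh2-null arrays. On WT arrays it was 724 to 1182, which overlapped.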

How the data were processed

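Each array has 1 deposited intensity per probe set, which the authors computed with RMA (robust multi-array average), per the submitters' processing notes. Since RMA output is usually log2 and these values are linear, it is inferred that the authors undid the log. The other deposited table gives intensity after ComBat batch correction, per the file headers, which do not state the batches. It gave the gene symbols and an alternative analysis, in which 2 values below 1 were raised to 1. The 7 columns it holds of other samples were set aside. The annotation build was not given in the sources used here.

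Of 45101 probe sets, those that were controls (64), had no gene (5820) or named several genes (1399) were not analysed. Intensities were turned to log2 without a filter or further normalization. The genotypes were compared over all 20680 genes by limma 3.58.1 under R 4.3.3 (lmFit, eBayes; genotype alone in the model), two-sided, with Benjamini-Hochberg adjustment and a threshold of 0.05. Changes are Ezh2-null minus WT. The exact permutation test used every possible split of the arrays.

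The genes and lists were chosen with earlier results of these data known. Described in full are genes that passed, genes whose genotypes did not overlap, and the 2 with the smallest p in each role group; of other pathway lists, genes that passed or else the 2 with the smallest p. Ddit4, Hif1a, Nkg7, Olfm4 and the neighbours of Ldhb were chosen after their values were seen. Tfrc was left out of the erythroid sum with its value known. Alternatives were the batch-adjusted table, no genes below the 40th percentile, every probe set, their mean, quantile normalization, median centring, array weights, the replicate number as a block, robust variance with an intensity trend, each array left out, WT replicates 3 and 4 left out or averaged, and a threshold of 0.1. On simulated data for this comparison of 20680 genes, 68% of genes changed 2-fold and 93% of those changed 4-fold were recovered, and 8% of calls were wrong. Noise was simulated independently for each gene and array, without a shared split like that of WT replicates 3 and 4. These rates may therefore not hold for the real arrays. Promoter windows came from a RefSeq table of GRCm38.p6, which also gave gene order.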

Additional observations from a re-analysis of the deposited data

Results flagged for a closer look

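In 88 groups of arrays, covering the 36 genes, Ezh2 and 7 genes of related pathways, 3 single arrays lay far from the rest of their group by Dixon's criterion, which flags about 1 group in 20 by chance. Vegfa on Ezh2-null replicate 2 read 9.35, against 8.68 to 8.86 on the other Ezh2-null arrays. Ero1l on Ezh2-null replicate 3 read 10.85, against 11.28 to 11.43 on the others. Aldoa on WT replicate 1 read 13.05, against 12.74 to 12.77 on the other WT arrays.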

How the results depend on the processing

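The count of all genes called, 103 here, was 202 in the batch-adjusted table, 162 for every probe set on its own, 1007 with array weights, 61 without WT replicates 3 and 4, 22 with those arrays averaged and 488 at an adjusted p under 0.1. Leaving out each array in turn gave 17 to 330. The count among the 36 genes, 1 here, was 2 without dim genes and with quantile normalization, for which no count over all genes is given here. It was also 2 with the replicate number as a block, against 135 of all 20680 genes, and at an adjusted p under 0.1, against 2.36%. Those 2 genes were Ldhb and Ndrg1 each time. With array weights the count was 7, against 1007 of 20680 genes. Of 83 probe sets on their own 4 passed, against 0.428% of 37818. Without WT replicates 3 and 4 the count was 0, against 61 of all genes, and with them averaged 0, against 22. Leaving out each array in turn gave 0 to 2. The fits with arrays left out or averaged hold fewer samples; the cause of the other shifts was not tested. The median change of the 36 genes stayed between -0.11 and 0.05 in every alternative that gives one. Ezh2 passed in 10 of the 19 alternatives with a value per gene, with changes of -1.53 to -0.99. Of 682 pairs of a gene and an alternative, 30 had the other sign, on 13 genes, none called in either analysis. Same-numbered arrays did not deviate together (correlations across genes of -0.05, 0.09, 0.13 and -0.14), so the block rests on a shared number only, and with it the replicate block moved the count over all genes to 135. Signal over background is not in the files used, so dim genes such as Eno2 and Pdk2 carry the least certain values.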
